A study of Homo sapiens with 7 samples.

Results

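TEM4-18 is a line of PC-3, the established human prostate carcinoma line, that was selected in culture for passage across a layer of human lung microvascular endothelial cells. GS683.LALN and JD1203.Lu are lines recovered from mice after TEM4-18 cells had been injected into the blood. The comparison uses 4 of the 7 arrays of the series: both arrays of injected TEM4-18 and 1 array of each recovered subline. Total RNA of cultured cells was hybridised to 1-colour Affymetrix arrays. All these lines express luciferase, the injected line as well as the recovered ones. The series design text compares each recovered subline with TEM4-18. The other 3 arrays are GS672.Ug, recovered from urogenital tissue after injection of PC-3, and GS689.Li and GS694.LAd, recovered from liver and left adrenal after injection of JD549.Ki, itself a kidney-derived line of PC-3. These 3 PC-3-descended sublines never passed through TEM4-18. They are used here to estimate the spread and to show where a gene stands.

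The labels are not uniform. The sample description places GS683.LALN in the left axillary lymph node, while the design text places it in the lung. The description of JD1203.Lu names lung and TEM4-18, while its source name reads JD549.Ki. Both sublines were kept with TEM4-18 as their parent. Each subline is a single array, and nothing in the labels says whether the TEM4-18 duplicates were separate cultures. Their spread may thus be technical, and p-values measure the spread among these arrays.

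A carcinoma cell that leaves a vessel and grows in a new organ has to loosen its junctions, cross endothelium and matrix, and proliferate among foreign cells. Desmosomes and keratins hold epithelial cells together, and transcription factors such as AP-2 and ZEB1 set how much of the epithelial programme a cell keeps. TEM4-18 is known as a mesenchymal-like variant of PC-3. Of 6 markers of that state 5 had signals of 5432 or more on all 4 arrays, and ZEB2, a relative of ZEB1, stayed below the table's median of 268 at 120.0 and 104 in TEM4-18, 53.9 in GS683.LALN and 161 in JD1203.Lu. VIM, the mesenchymal intermediate filament, had signals of 67846 and 68304 in TEM4-18, 61696 in GS683.LALN and 81724 in JD1203.Lu. ZEB1, a repressor of epithelial genes, ranged from 7163 to 8172, and the signal of CDH1, which encodes E-cadherin, did not exceed 109 on any of the 4 arrays. Keratins of simple epithelium were present throughout, with KRT18 between 29052 and 37136.

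Signals are MAS5 intensities scaled by the authors, and differences are given on the log2 scale after an offset of 46.9, which understates changes of dim genes. Of the probe sets, 13640 genes passed the filter on low values. The arrays had medians between 239 and 297. The TEM4-18 duplicates differed by a root mean square of 0.415 log2 units over these genes. GS683.LALN lay 0.580 and 0.559 from the duplicates, JD1203.Lu lay 0.649 and 0.642 from them, and the sublines lay 0.669 from each other. Each subline was thus farther from the other subline than from the line both were grown from. Since every subline is 1 culture, fewer cells of a type and less RNA per cell cannot be told apart.

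Markers of other cell types that a recovered culture could hold were checked. Host cells would be murine and the probe sets are for human genes, so low signals cannot show that host cells were absent. Of 8 leukocyte markers on the array 5 stayed below the table's median signal of 268 on all 4 arrays, PTPRC among them at 121 or less. Of the other low ones, CD3D had 31.5 and 19.7 in TEM4-18, 166 in GS683.LALN and 51.3 in JD1203.Lu. LCP2 had 138 and 49.4, then 239 and 72.6. MS4A1 differed from TEM4-18 by −0.56 in GS683.LALN and −0.47 in JD1203.Lu, and LYZ by −0.30 and −0.84. Summed signals of that list were 1258 and 1691 in TEM4-18, 2037 in GS683.LALN and 1843 in JD1203.Lu. Of 8 endothelial markers 6 stayed below the median, CDH5 at or below 88.2 and TEK at or below 36.4, with list sums of 1805 and 1930 in TEM4-18, 1642 in GS683.LALN and 2798 in JD1203.Lu. Of the other low ones, ERG had 61.7 and 63.3 in TEM4-18, 204 in GS683.LALN and 222 in JD1203.Lu. CLDN5 had 19.2 and 19.1, then 159 and 62.7, and VWF had 29.6 and 75.0, then 81.3 and 216. EMCN differed from TEM4-18 by −0.69 in GS683.LALN and 0.41 in JD1203.Lu. Of 6 markers of lymph node stroma and dendritic cells 4 stayed below the median, CCL21 and CR2 at or below 60.8, with list sums of 3338 and 2872 in TEM4-18, 4403 in GS683.LALN and 4385 in JD1203.Lu. CLU, which made up most of these sums, had 2793 and 2391 in TEM4-18, 4034 in GS683.LALN and 3971 in JD1203.Lu. Of 7 lung epithelium markers 5 stayed below the median, SCGB1A1 and FOXJ1 at or below 38.9, with list sums of 1362 and 1961 in TEM4-18, 1502 in GS683.LALN and 2384 in JD1203.Lu. In JD1203.Lu SFTPB was at 1476 against 826 and 952 in TEM4-18, AGER at 246 against 76.9 and 119.5, and NKX2-1 at 211 against 83.2 and 111. AGER and NKX2-1 did not pass the filter on low values. The rest of the list did not rise in JD1203.Lu. SFTPD was at 31.3 against 44.6 and 139, and SFTPC at 376 lay between the 290 and 564 of TEM4-18. SCGB1A1 and FOXJ1 differed from TEM4-18 by −0.12 and −0.14. The sum over 8 fibroblast markers moved most, from 19805 and 18097 in TEM4-18 to 4861 in GS683.LALN and 32924 in JD1203.Lu, and its movement was that of COL1A1. The part of these markers in the results was not tested.

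Limma, with a 2-sided test and Benjamini-Hochberg adjustment over all 13640 genes, called 7 genes higher (0.0513% of the genes tested) and 3 lower (0.022%) in the sublines than in TEM4-18. In all 10 the 2 subline arrays and the 2 TEM4-18 arrays did not overlap. That adds no support to the calls, since genes with such small p-values would rarely overlap. The share of all tested genes without overlap was not counted. Unadjusted p was under 0.05 for 1326 genes. The genes that rose were AADACP1, AADAC, PI3, PAMR1, UBE2QL1, SYTL2 and RGS3. The genes that fell were TFAP2A, DSP and APCDD1L-DT.

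DSP and TFAP2A fell furthest among the called genes. DSP encodes desmoplakin, which ties the keratin filaments to the desmosome. Its signal was 2439 and 2582 in TEM4-18, 53.7 in GS683.LALN and 55 in JD1203.Lu. Both sublines lay close together, 25.4-fold and 25.1-fold below the injected line. The difference was −4.66 ± 0.54 log2 units (SE; limma adjusted p = 0.0201). Each SE given here and below comes from the fit of 3 groups, so the spread of the PC-3-descended sublines enters it. For DSP the TEM4-18 duplicates differed by 0.08 log2 units and GS683.LALN from JD1203.Lu by −0.02. The PC-3-descended signals of DSP ranged from 1646 to 7309. TFAP2A encodes AP-2alpha, a transcription factor of epithelial and neural crest cells. Its signal was 2419 and 2836 in TEM4-18, 156 in GS683.LALN and 133 in JD1203.Lu, a difference of −3.80 ± 0.23 (SE; limma adjusted p = 0.000371). Its second probe set that passed the filter pointed the same way, judged here and below by the mean of the sublines. The PC-3-descended sublines read 3589.6, 7309 and 1646 for DSP and 1589.6, 2164 and 1879.8 for TFAP2A, in the order GS672.Ug, GS689.Li and GS694.LAd. The TEM4-18-derived pair was lower than these 3, with differences of −5.14 ± 0.49 for DSP (SE; limma adjusted p = 0.00147) and −3.32 ± 0.21 for TFAP2A (SE; limma adjusted p = 0.000482). In that contrast limma called 1.6% of the genes higher and 2.16% lower.

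Both genes lie on chromosome 6, with 5 tested genes between them. SNRNP48, SLC35B3, LOC100506207 and OFCC1 lay between −0.34 and 0.28 log2 units of TEM4-18 in both sublines. BMP6, a bone morphogenetic protein, differed by −0.13 in GS683.LALN and by 1.26 in JD1203.Lu. The falls of DSP and TFAP2A were not shared by the 5 tested genes between them.

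The promoters of DSP, TFAP2A and AADAC are shown because these genes were among the largest called changes and the first pair fell together. They run from 250 bases before to 50 bases after the transcription start in RefSeq (GRCh38.p14), 5′ to 3′ on the gene's strand. Capitals mark matches to CAGGTG, an E-box of the kind ZEB1 binds. The spans are chr6:7541421-7541720 on the plus strand, chr6:10419610-10419909 on the minus strand and chr3:151813866-151814165 on the plus strand.
DSP: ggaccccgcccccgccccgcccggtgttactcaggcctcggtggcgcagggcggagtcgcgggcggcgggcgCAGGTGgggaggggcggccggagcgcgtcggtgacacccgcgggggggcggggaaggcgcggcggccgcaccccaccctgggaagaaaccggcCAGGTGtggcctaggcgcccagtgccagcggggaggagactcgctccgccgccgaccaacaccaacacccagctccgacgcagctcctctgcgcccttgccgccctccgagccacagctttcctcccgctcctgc
TFAP2A: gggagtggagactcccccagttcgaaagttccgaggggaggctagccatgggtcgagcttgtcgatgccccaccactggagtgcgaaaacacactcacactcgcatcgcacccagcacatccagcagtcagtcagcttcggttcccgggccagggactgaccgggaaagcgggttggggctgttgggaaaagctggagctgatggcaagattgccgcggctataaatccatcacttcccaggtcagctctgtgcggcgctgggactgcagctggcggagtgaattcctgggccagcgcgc
AADAC: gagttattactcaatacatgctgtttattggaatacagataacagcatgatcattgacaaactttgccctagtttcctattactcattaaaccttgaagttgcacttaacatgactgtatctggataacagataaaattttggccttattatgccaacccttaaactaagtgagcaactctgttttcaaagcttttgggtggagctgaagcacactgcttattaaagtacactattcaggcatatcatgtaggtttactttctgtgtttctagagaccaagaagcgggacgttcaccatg
The DSP window had a GC content of 77%, the TFAP2A window 61.67% and the AADAC window 37.33%. The search covered both strands for CAGGTG and for GCCNNNGGC, the AP-2 consensus, which reads the same on both strands. No matches overlapped in these windows. DSP held 2 E-box matches, starting at bases 73 and 166 of the window, and no AP-2 match, and the other windows held neither. The E-box occurred in 20.6% and the AP-2 letters in 23.04% of 27305 promoters of that length. Of the genes 2-fold lower in both sublines, 59 of 75 had a promoter in the table, and 23.73% of those held the E-box and 33.9% the AP-2 letters. Among tested genes the shares were 18.31% and 31.54%.

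The third gene that fell, APCDD1L-DT, is a noncoding transcript divergent from APCDD1L. It had signals of 750.1 and 889 in TEM4-18, 68.5 in GS683.LALN and 115 in JD1203.Lu. The difference was −2.66 ± 0.33 (SE; limma adjusted p = 0.0327). ALDH1A3, which makes retinoic acid from retinal, came next by p without passing the threshold. Its signals were 11513 and 11201 in TEM4-18, 915 in GS683.LALN and 2272 in JD1203.Lu, with a difference of −2.93 ± 0.41 (SE; limma adjusted p = 0.0561). For ALDH1A3 the PC-3-descended sublines lay above TEM4-18 at 16134, 30312 and 28928. A second ALDH1A3 probe set read −0.50 in GS683.LALN and 0.25 in JD1203.Lu, and a second one of APCDD1L-DT read −0.34 in GS683.LALN. DOCK10, a guanine nucleotide exchange factor, had 2139.8 and 1666 in TEM4-18 against 635 and 679 in the sublines (limma adjusted p = 0.0639).

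AADACP1 and AADAC showed the steepest rises. AADAC encodes arylacetamide deacetylase, an esterase of the endoplasmic reticulum, and AADACP1 is annotated as a related pseudogene. They are neighbours among the tested genes of chromosome 3. AADACP1 had signals of 183 and 109 in TEM4-18, 5482 in GS683.LALN and 9450.4 in JD1203.Lu. This was a difference of 5.26 ± 0.30 log2 units (SE; limma adjusted p = 0.000371), 29.2-fold in GS683.LALN and 50.2-fold in JD1203.Lu. AADAC had 30.5 and 46.4 in TEM4-18, 1111 in GS683.LALN and 2409.7 in JD1203.Lu, a difference of 4.31 ± 0.41 (SE; limma adjusted p = 0.00764). Each gene has 1 probe set, and whether the probes of one also bind the transcript of the other was not tested. The tested genes on either side, IGSF10 and MBNL1, differed from TEM4-18 by 0.46 and 0.03 in GS683.LALN and by 0.53 and 0.03 in JD1203.Lu. The PC-3-descended sublines were intermediate, with AADACP1 at 2001, 2000.3 and 2352 and AADAC at 556, 683 and 952.

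PI3 and UBE2QL1 rose in the sublines and were higher still in the PC-3-descended lines. PI3 encodes elafin, a secreted inhibitor of elastase. It had 226 and 252 in TEM4-18, 2464 in GS683.LALN and 4150.0 in JD1203.Lu (difference 3.51 ± 0.30, SE; limma adjusted p = 0.00402), and 6281, 9689 and 9757 in the PC-3-descended sublines. UBE2QL1, a ubiquitin-conjugating enzyme, had 7218 and 6665 in TEM4-18, 23837 in GS683.LALN and 25103 in JD1203.Lu (difference 1.81 ± 0.19, SE; limma adjusted p = 0.00991). The TEM4-18-derived pair was lower than the PC-3-descended sublines for both, with differences of −1.38 ± 0.27 for PI3 (SE; limma adjusted p = 0.0295) and −0.90 ± 0.17 for UBE2QL1 (SE; limma adjusted p = 0.0248).

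PAMR1 rose in the sublines and was low in the PC-3-descended lines. It encodes a secreted protein with a protease-like domain. Signals were 134 and 179 in TEM4-18, 1815 in GS683.LALN and 1589 in JD1203.Lu, against 263, 248 and 229.9 in the other sublines. The rise over TEM4-18 was 3.11 ± 0.30 (SE; limma adjusted p = 0.00764) and the gap to the PC-3-descended sublines was 2.57 ± 0.27 (SE; limma adjusted p = 0.00216). ITPR2, an inositol trisphosphate receptor that releases calcium, lay higher in both sublines without passing the first threshold, and its PC-3-descended values overlapped those of TEM4-18. Its signals were 353 and 277 in TEM4-18, 1383 in GS683.LALN, 1358 in JD1203.Lu and 191, 418 and 273 in the others, with limma adjusted p of 0.126 against TEM4-18 and 0.0114 against the PC-3-descended sublines.

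SYTL2, an effector of RAB27 in vesicle transport, and RGS3, which shortens signalling of G proteins, made smaller rises. SYTL2 had 3379.9 and 3346 in TEM4-18, 10742 in GS683.LALN and 15073 in JD1203.Lu (difference 1.91 ± 0.20, SE; limma adjusted p = 0.00991). RGS3 had 1114 and 976 in TEM4-18, 3183 in GS683.LALN and 4104 in JD1203.Lu (difference 1.75 ± 0.22, SE; limma adjusted p = 0.0363). For each, 1 of the probe sets that passed the filter pointed the other way.

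The calls rested on few arrays. Without either TEM4-18 replicate only AADACP1 and TFAP2A stayed called among the 10, a count of 2. Without GS683.LALN limma called 145 genes, without JD1203.Lu 40 and without GS672.Ug 17. DSP and RGS3 lost their calls without JD1203.Lu, and RGS3 and APCDD1L-DT without GS689.Li or GS694.LAd. With the 4 arrays alone 4 genes passed, and with no intensity trend 3.

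**Figure D1:**
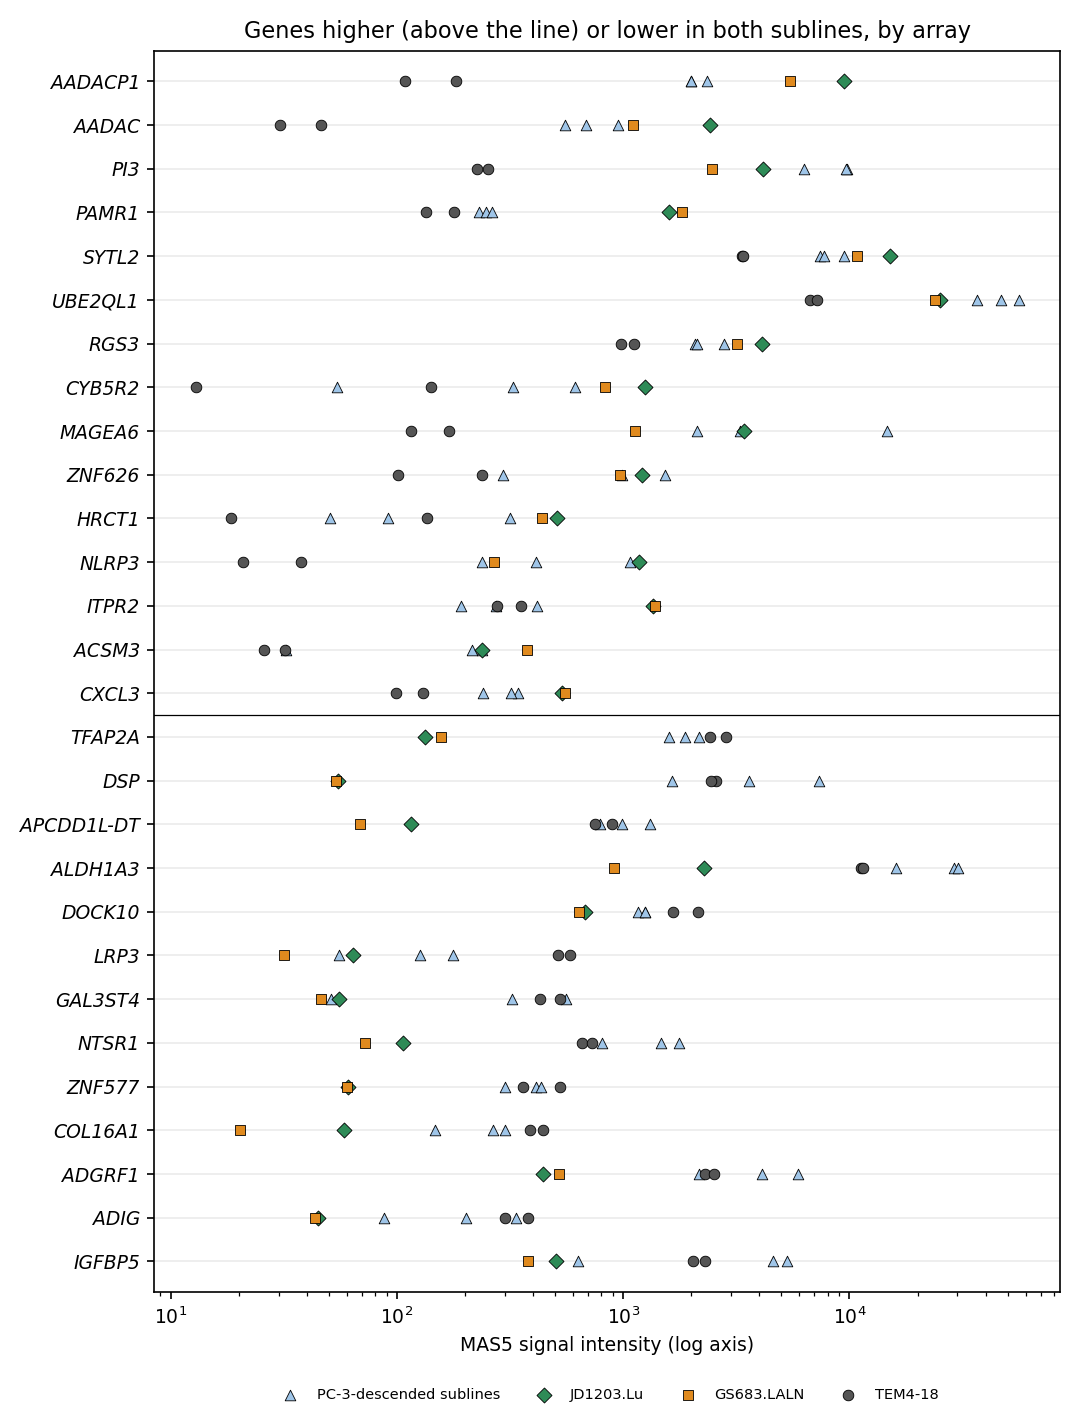
MAS5 signal of each array on a log axis for the genes named as higher (above the line) or lower in both sublines. Circles are the 2 TEM4-18 arrays, the square is GS683.LALN, the diamond is JD1203.Lu and triangles are the 3 PC-3-descended sublines. For DSP both sublines sit at 53.7 and 55 while the other 5 arrays lie at 1646 or above.

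Genes were then sorted by size, with no test, since each subline has 1 array. The size criterion was a distance of 2-fold or more from the averaged duplicates, with the subline outside both of them, among 12662 genes that reached the table's median signal on at least 1 of the 4 arrays. GS683.LALN lay 2-fold higher for 289 genes (2.28%) and 2-fold lower for 379 (2.99%). JD1203.Lu lay higher for 560 (4.42%) and lower for 475 (3.75%). The duplicates themselves were 2-fold apart for 399 genes (3.15%). Both sublines lay 2-fold higher for 122 genes (0.964%) and 2-fold lower for 75 (0.592%). These 197 genes were 29.5% of the 668 changes by size in GS683.LALN and 19.03% of the 1035 in JD1203.Lu. Both sublines were set against the same duplicates. When each was set against a different duplicate, so that no control array was shared, 158 or 173 genes lay 2-fold the same way in both and 73 or 66 in opposite ways. With the shared reference 26 genes were opposite (0.205%). A set of 69 higher and 48 lower genes was shared under all 3 choices of reference. Without TEM4-18 replicate 2 the 197 became 310.

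**Figure D2:**
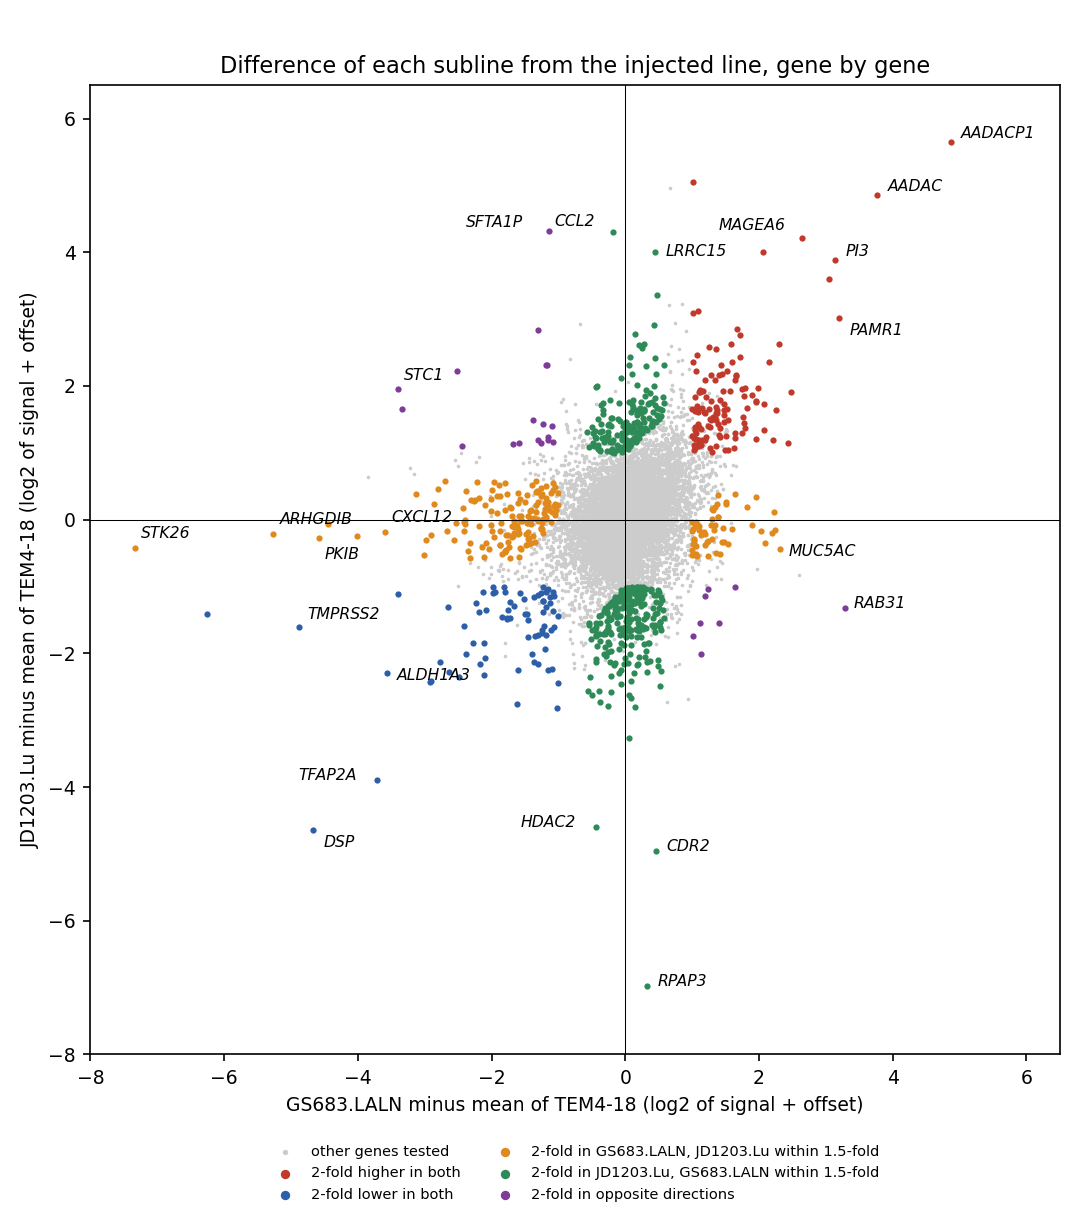
Each point is 1 of the 13640 tested genes, with its log2 difference from the mean of TEM4-18 in GS683.LALN on the horizontal axis and in JD1203.Lu on the vertical axis. Coloured points are the size classes; the 122 and 75 genes at the upper right and lower left lie 2-fold from TEM4-18 in both sublines, with AADACP1 and DSP at the far ends, and the 206 and 409 genes near the axes lie 2-fold from it in 1 subline.

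Beyond the called genes, CXCL3, NLRP3 and ACSM3 were among the shared higher genes of largest size. CXCL3, a neutrophil-attracting chemokine, had 99.6 and 130.0 in TEM4-18, 553 in GS683.LALN and 539 in JD1203.Lu. NLRP3, the inflammasome sensor, had 37.8 and 20.98, then 268 and 1171. ACSM3, a medium-chain acyl-CoA synthetase of mitochondria, had 25.9 and 31.9, then 376 and 238. The sublines lay above both duplicates in each case, which the size criterion requires. MAGEA6, a cancer-testis antigen, had 170.1 and 115 in TEM4-18, 1129.6 in GS683.LALN and 3428 in JD1203.Lu, from a probe set of the kind that can bind its close relatives. CYB5R2, a cytochrome b5 reductase, and HRCT1 were also in this class, but their duplicates were 1.65 and 1.49 log2 units apart. ZNF626, a zinc finger gene, was in it with differences of 2.31 for GS683.LALN and 2.62 for JD1203.Lu, where its other probe set read 0.06.

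LRP3, NTSR1, COL16A1, IGFBP5 and ADGRF1 were among the shared lower genes of largest size. LRP3, a member of the LDL receptor family, had 584 and 514 in TEM4-18, 31.7 in GS683.LALN and 64.03 in JD1203.Lu. The PC-3-descended sublines were also below TEM4-18 for LRP3, at 55.8, 177 and 126. NTSR1, the neurotensin receptor, had 731 and 657, then 72.1 and 106, and 1772, 1475 and 809.6 in the PC-3-descended sublines. The TEM4-18-derived pair was lower than those 3, with a difference of −3.30 ± 0.34 (SE; limma adjusted p = 0.00189). COL16A1, a collagen of the fibril-associated kind, had 442 and 388, then 20.4 and 58.4. IGFBP5, a binding protein of insulin-like growth factors, had 2301 and 2043, then 379 and 503, and all 6 of its probe sets that passed the filter pointed down. ADGRF1, an adhesion G protein-coupled receptor, had 2528 and 2300.0, then 522 and 444, with all 4 probe sets down. In every one of these the sublines lay below both duplicates, which the size criterion requires. The tested genes on either side of ADGRF1 were also lower. PLA2G7 read −2.27 in GS683.LALN and −1.85 in JD1203.Lu, and TNFRSF21 read −1.15 and −1.03. GAL3ST4, ZNF577 and ADIG lay between −2.07 and −2.49 in both sublines, and a second probe set of ZNF577 read −0.30 in JD1203.Lu. The limma adjusted p of the shared genes named so far that were not called lay between 0.0561 for ALDH1A3 and 0.436 for IGFBP5.

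TMPRSS2, the androgen-regulated serine protease, lay lower in both sublines by unequal sizes. It had 2887 and 2439 in TEM4-18, 44.6 in GS683.LALN and 837 in JD1203.Lu, and all 3 probe sets pointed down. AXL, a receptor tyrosine kinase of mesenchymal cells, had 20606 and 16456, then 9107 and 6743. CDKN1A, the p21 inhibitor of cell cycle kinases, lay higher, with 661 and 976, then 2004 and 2367. AGR2, a disulfide isomerase of secretory cells, had 1513 and 1288, then 4718 and 9785, and TFF1, a trefoil peptide, had 635 and 612, then 1556 and 3947. None of these 5 genes was called by limma.

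In GS683.LALN, 150 genes lay 2-fold lower (1.18%) and 56 lay 2-fold higher (0.442%) while JD1203.Lu was within 1.5-fold of TEM4-18 and the sublines were 2-fold apart. The losses were the larger. STK26, a protein kinase that acts at the Golgi, had 9571 and 10376 in TEM4-18, 15.1 in GS683.LALN and 7404 in JD1203.Lu. The signal in GS683.LALN lay below the offset of 46.9, so its distance is a bound, at least 161-fold lower than TEM4-18, against 1.34-fold in JD1203.Lu. The second probe set read −5.21 and −0.70. ARHGDIB, known as a metastasis suppressor, had 2029.8 and 2089, 7.9 in GS683.LALN and 1767 in JD1203.Lu, with all 3 probe sets lower in GS683.LALN. Of the PC-3-descended sublines GS689.Li was also low for ARHGDIB, which read 1240.2, 34.9 and 707 there in the order given above.

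PKIB, an inhibitor of protein kinase A, had 3612 and 2883, then 89.4 in GS683.LALN and 2657 in JD1203.Lu. MACROH2A2, a histone variant of repressed chromatin, had 2308 and 2569, then 66.6 and 2314. CXCL12, the ligand of CXCR4, had 2098 and 2655, then 152 and 2060.2. Of the PC-3-descended sublines GS672.Ug was also low for CXCL12 at 275, while GS689.Li read 1984 and GS694.LAd 1065. A second CXCL12 probe set read −0.98 for GS683.LALN and −0.9999 for JD1203.Lu, so the 2 probe sets disagree on JD1203.Lu. IGFBP3, the main carrier of insulin-like growth factors, had 26055 and 24134, then 3130.3 and 20208. GALNT14, ARHGEF40, EFNB3 and PLPP4 lay between −2.91 and −4.01 in GS683.LALN. The other probe set of EFNB3 that passed the filter read 0.36 there, and those of ARHGEF40 read −0.79 and −0.55.

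MUC5AC and EPHA5 were among the genes higher by size in GS683.LALN. MUC5AC, a gel-forming mucin, had 399.9 and 583 in TEM4-18, 2591 in GS683.LALN and 343 in JD1203.Lu. Its probe sets disagreed: the others that passed the filter read 3.58, 0.11 and −0.68 in GS683.LALN and 2.01, 0.34 and 0.26 in JD1203.Lu. EPHA5, an ephrin receptor, had 470.0 and 602, then 2426 and 406, and its antisense transcript EPHA5-AS1 had 109 and 164, then 786 and 111. NAP1L2, a histone chaperone, had 2001 and 2207, then 8717 and 1854. The PC-3-descended sublines were also above TEM4-18 for NAP1L2, at 8183.5, 6741 and 5314. PLAC4, ZNF826P, DERL3, PTPN20, PMCHL1 and TSGA10IP lay between 1.64 and 2.23, and a second probe set of PMCHL1 read 0.37.

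In JD1203.Lu, 240 genes lay 2-fold lower (1.9%) and 169 lay 2-fold higher (1.33%) while GS683.LALN was near TEM4-18. HDAC2, a histone deacetylase, had 13856 and 13206 in TEM4-18, 9979 in GS683.LALN and 513 in JD1203.Lu, 24.2-fold lower, with both probe sets down. CDR2, an antigen of paraneoplastic cerebellar degeneration, had 2396 and 2446, 3332 in GS683.LALN and 32.2 in JD1203.Lu. LSM6, a component of the complexes that bind the ends of U6 RNA and decaying messenger RNA, had 4308 and 5032, then 4821 and 441. The PC-3-descended sublines were not low for these 3 genes, and HDAC2 read 10525, 11234 and 10615 there.

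Some losses in JD1203.Lu depended on the probe set. RPAP3, an assembly factor of RNA polymerases, had 5995 and 6864, 8026 in GS683.LALN and 4.41 in JD1203.Lu, but its other probe set read 2187, 2180.4, 2436 and 1966 on the same arrays. CRTC1, a coactivator of CREB, lay at −2.62 by the probe set of higher mean and at 1.20 by the other. CYB5RL had 1 of 3 probe sets lower. INCENP, RARG, SHISA2 and PIM2 lay between −2.62 and −2.79.

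CCL2, the monocyte chemoattractant, read 26.4 and 29.7 in TEM4-18, 18.9 in GS683.LALN and 1431 in JD1203.Lu. No PC-3-descended subline exceeded 28.2. LRRC15, a membrane protein with leucine-rich repeats, had 284 and 231, 365 in GS683.LALN and 4831 in JD1203.Lu. JD1203.Lu stood above the 3 other arrays of the comparison in both genes, which the rule for this class requires. PLAT, tissue plasminogen activator, had 1562 and 2189, then 2535 and 10041, and ENTPD3, an ectonucleotidase, had 1169 and 1088, then 1538 and 8767. For LRRC15, PLAT and ENTPD3 the PC-3-descended sublines were also above TEM4-18, with LRRC15 at 948, 1950.0 and 669.9, PLAT at 37195, 24238 and 11275 and ENTPD3 at 8328, 2737 and 4426. TNS1, EHD2, ZNF788P, GDF15, ZIK1 and TENT5C lay between 2.44 and 3.37. Other probe sets that passed the filter gave smaller rises in JD1203.Lu. They read 0.68 for TENT5C, 1.65 for ZIK1, 0.78 and 1.97 for EHD2 and 0.64 to 1.27 for TNS1. In GS683.LALN they read 1.40 for TENT5C, −1.06 for ZIK1, 0.45 and 1.01 for EHD2 and −1.01 to 1.08 for TNS1. The PC-3-descended sublines had TNS1 at 1165, 1237 and 1023, above the 841 of JD1203.Lu. They had EHD2 at 74.1, 3584 and 4247, GDF15 at 282, 1391 and 1568, and ZIK1 at 155, 69.0 and 31.8. GS689.Li and GS694.LAd were thus also high for EHD2 and GDF15, but not for ZIK1. The duplicates of GDF15, a stress-induced cytokine, were 1.31 apart.

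**Figure D3:**
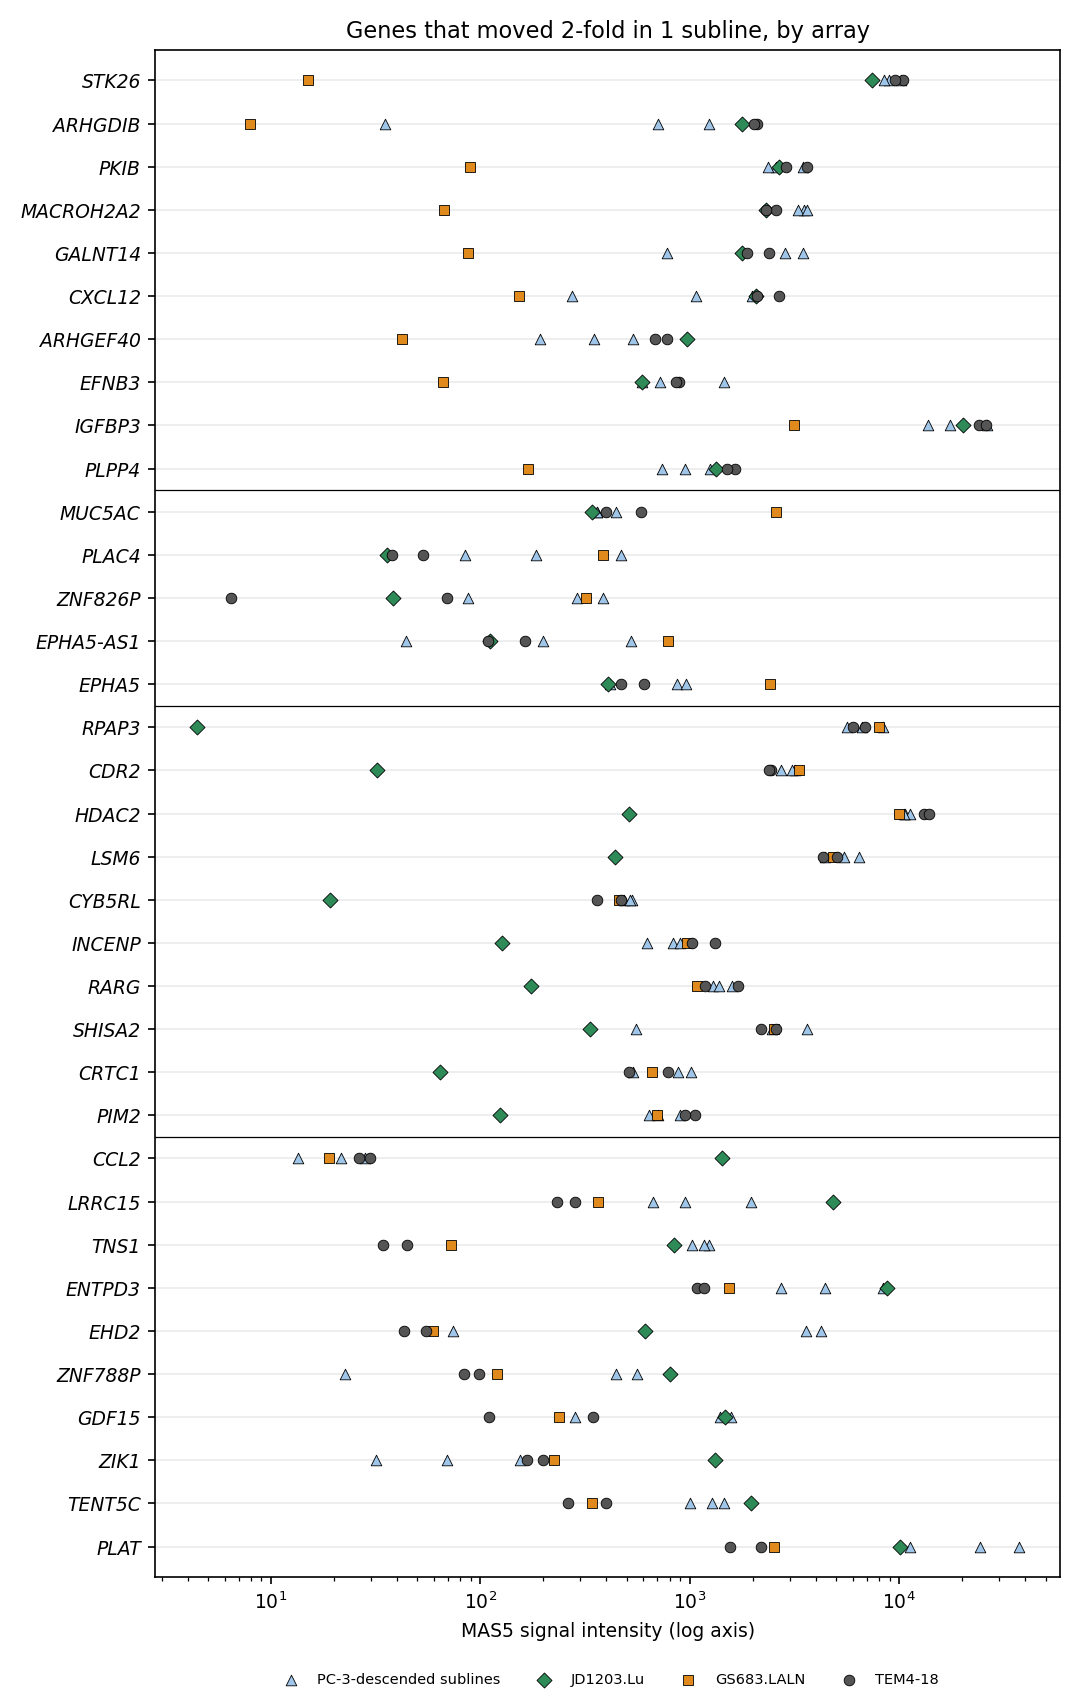
MAS5 signal of each array on a log axis for genes 2-fold from TEM4-18 in 1 subline; from top to bottom, lower in GS683.LALN, higher in GS683.LALN, lower in JD1203.Lu and higher in JD1203.Lu. Circles are TEM4-18, squares GS683.LALN, diamonds JD1203.Lu and triangles the PC-3-descended sublines; the square of STK26 at 15.1 and the diamond of HDAC2 at 513 stand apart from all other arrays.

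Gene lists are described by counts and medians, set beside medians of 0.01 (GS683.LALN) and 0.04 (JD1203.Lu) over all tested genes. Over all genes 39.1% lay below both TEM4-18 arrays in GS683.LALN and 37.8% in JD1203.Lu, and 39.8% and 44.6% lay above both. No list had more than 1 gene called by limma.

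Most mitotic genes lay lower in both sublines, with the lower median in JD1203.Lu. Of 32 genes tested, 26 lay below both TEM4-18 arrays in GS683.LALN and 29 in JD1203.Lu, with medians of −0.19 and −0.56. ASPM, a spindle pole protein, had 10746 and 10572 in TEM4-18, 5935 in GS683.LALN and 3933 in JD1203.Lu. KIF20A, a kinesin of cytokinesis, had 8705 and 8427, then 5478 and 4469. AURKA, the centrosomal Aurora kinase, had 21151 and 20219, then 18195 and 11149. The shifts were small, with a single gene of the list 2-fold lower in JD1203.Lu, and none passed limma. In each subline 2 genes lay above both TEM4-18 arrays. These were CENPA, the centromeric histone, in both at 0.41 and 0.23, DLGAP5 in GS683.LALN at 0.16 and CCNB2 in JD1203.Lu at 0.15. Of 25 replication genes 13 and 19 lay below both TEM4-18 arrays, with medians of −0.13 and −0.36. CDC45, part of the replicative helicase, had 3225 and 3557, then 2609 and 1333, and MCM5, another part of it, had 8593 and 7581, then 4312 and 3823.

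Keratins and most matrix genes lay lower in GS683.LALN, while in JD1203.Lu they lay on both sides of TEM4-18. All 6 tested keratins were below both TEM4-18 arrays in GS683.LALN, with a median of −0.91, against 3 of 6 and a median of −0.00 in JD1203.Lu. KRT7 had 9334 and 9249 in TEM4-18, 3281 in GS683.LALN and 5146 in JD1203.Lu, and KRT8 had 5884 and 5658, then 2775 and 5503. KRT19 had 30973 and 28089, then 17187 and 33554. Of 33 matrix genes, 22 lay below both TEM4-18 arrays in GS683.LALN, 7 of them by 2-fold, with a median of −0.54, and 7 lay above both, 2 by 2-fold. In JD1203.Lu 13 lay below both, none by 2-fold, and 14 lay above both, 4 by 2-fold, with a median of 0.04. COL1A1, the main chain of type I collagen, had 18572 and 16721, 3071 in GS683.LALN and 30752 in JD1203.Lu. COL4A1, a chain of basement membrane collagen, had 3027 and 2914, then 955 and 2574. LUM, the proteoglycan lumican, lay above TEM4-18 in both sublines with 43.3 and 119, then 614 and 224. SPARC, a matrix-binding glycoprotein of the mesenchymal list, had 514 and 429, 8.6 in GS683.LALN and 839 in JD1203.Lu.

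The other junction genes did not follow DSP. Of 16 tested, 2 lay 2-fold lower in each subline and DSP was the single one in both, with list medians of −0.00 and 0.03. CLDN7, a claudin of tight junctions, had 494 and 432 in TEM4-18, 133 in GS683.LALN and 732 in JD1203.Lu. CLDN1, another claudin, had 283 and 481, then 746 and 1127.

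Interferon-response genes lay higher in JD1203.Lu. Of 38 tested, 31 lay above both TEM4-18 arrays there and 8 by 2-fold, with a median of 0.43; in GS683.LALN 17 lay above both and none by 2-fold, with a median of 0.10. IFITM1, which restricts virus entry, had 1422 and 1621 in TEM4-18, 1322 in GS683.LALN and 4451 in JD1203.Lu. IFI44 had 285 and 383, then 644 and 1074, and OASL had 198 and 387, then 381 and 810.5. JD1203.Lu was the highest of the 4 arrays in each. The MHC class I list had medians of 0.08 and 0.40, with 10 of 13 genes above both TEM4-18 arrays in JD1203.Lu. PSMB8, an immunoproteasome subunit, had 2077 and 2018, then 1961 and 3603.

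Chemokines and stress genes were partly shared. Of 12 chemokine and receptor genes tested, 3 lay 2-fold higher in both sublines: CXCL3, CXCL2 and CCL26. In GS683.LALN 5 of the 12 lay above and 5 below both TEM4-18 arrays, and in JD1203.Lu 6 above and 4 below. The list medians were 0.13 and 0.81, and their sign changed under 4 and 2 of 14 alternative settings. CXCL2 had 345 and 304, then 1203 and 861, and CCL26 had 279.8 and 143, then 923 and 799. CSF3, the granulocyte growth factor, had 39.1 and 30.5, then 117 in GS683.LALN and 650.4 in JD1203.Lu. Of 28 genes listed for unfolded protein and amino acid stress, 2 lay 2-fold higher in GS683.LALN and 7 in JD1203.Lu, with medians of 0.19 and 0.55. DDIT4, an inhibitor of mTOR signalling, had 175 and 324, then 789.8 and 757. STC2, a secreted glycoprotein induced by stress, had 205 and 131, then 396 and 610.4. HERPUD1, a factor of protein degradation at the endoplasmic reticulum that is not among the shared genes, had 7145 and 7712, then 9770.4 and 18655.

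**Figure D4:**
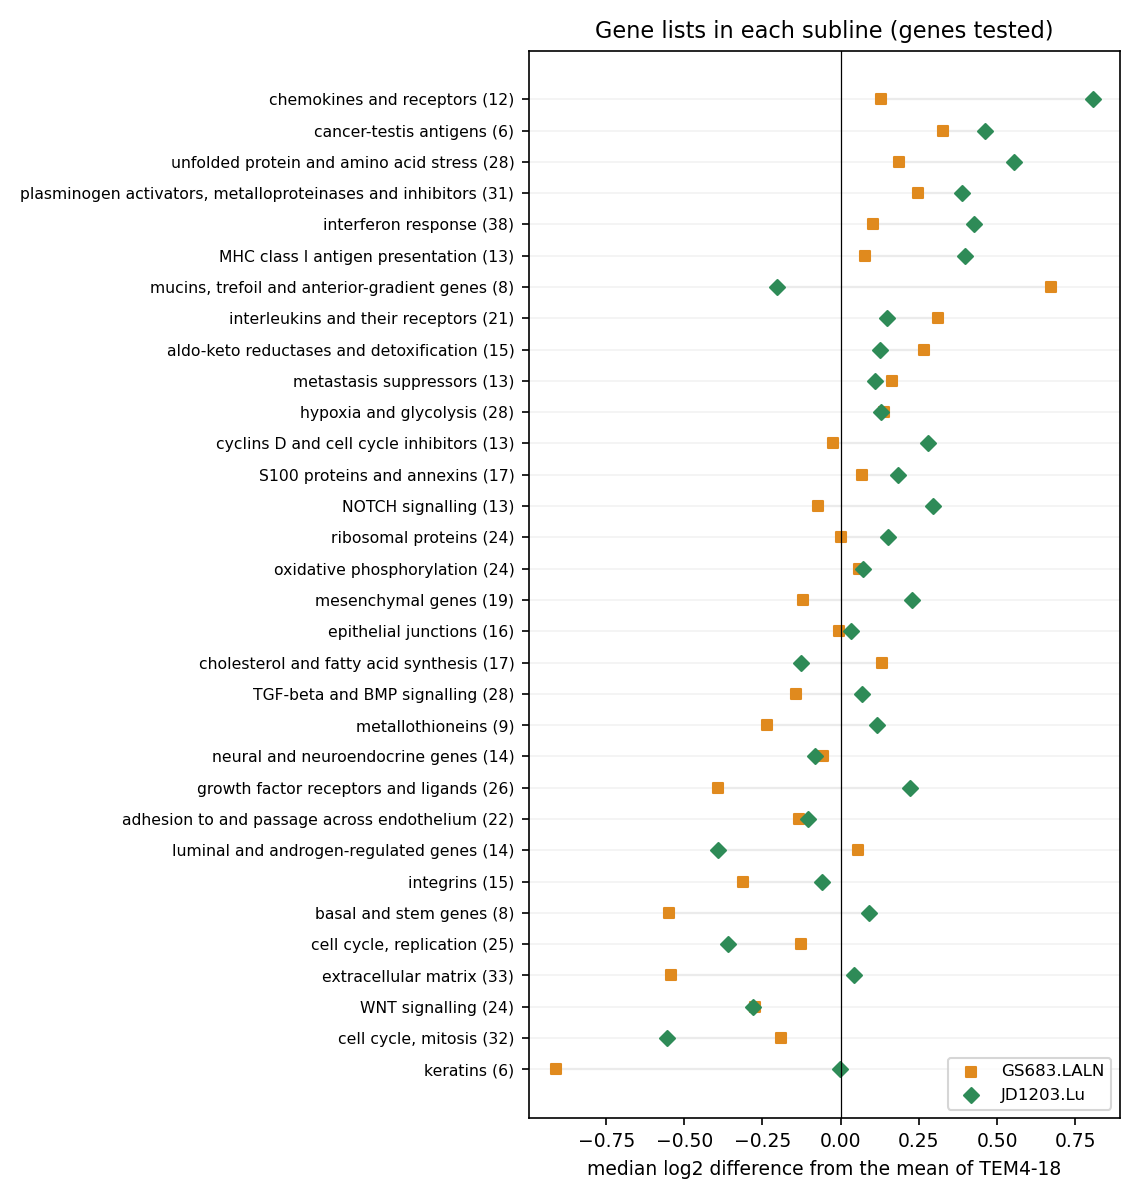
Median log2 difference from TEM4-18 over the tested genes of each list, with squares for GS683.LALN and diamonds for JD1203.Lu; the number of genes tested is in parentheses. The mitosis list lies at −0.19 and −0.56, and the keratin list at −0.91 and −0.00.

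Tested genes were also laid out in RefSeq gene order in 341 blocks of about 40 neighbours. Block medians of the TEM4-18 duplicates ranged from −0.24 to 0.11, those of GS683.LALN from −0.41 to 0.80 and those of JD1203.Lu from −0.44 to 0.43. The 3 highest blocks of GS683.LALN lie side by side on chromosome 7: SND1-IT1 to TMEM140 at 0.80, WDR91 to CLCN1 at 0.74 and FAM131B to AGAP3 at 0.65. In JD1203.Lu the same blocks were at −0.10, 0.15 and −0.12. With the block before them, from CBLL1-AS1 to SND1, the run held 160 tested genes, of which 129 lay above both TEM4-18 arrays in GS683.LALN and 67 in JD1203.Lu. The medians of this run were 0.62 in GS683.LALN, 0.01 in JD1203.Lu and between −0.02 and 0.06 in the PC-3-descended sublines. Chromosome 7 held 14 of the 56 genes higher in GS683.LALN by size, against 4.77% of all genes sorted. They included HILPDA, GSTK1, CUL1, CHCHD3 and METTL2B within the run.

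A low block on chromosome 1 was shared. LAMC1 to NAV1, the lowest block of GS683.LALN, had medians of −0.41 in GS683.LALN and −0.36 in JD1203.Lu, and the block before it, PRDX6 to DHX9, had −0.35 in both. Over these 80 genes 58 lay below both TEM4-18 arrays in GS683.LALN and 59 in JD1203.Lu, while the PC-3-descended sublines had medians between −0.04 and −0.03. Other low blocks of GS683.LALN lie on chromosome 3, PTPN23 to GPX1 at −0.39 and GALNT15 to CRTAP at −0.35, where JD1203.Lu was at −0.01 and 0.17. JD1203.Lu had its lowest blocks on chromosome 4, HMX1 to RELL1 at −0.44, and chromosome 19, SPRED3 to BLVRB at −0.40 and TMEM160 to NUCB1 at −0.37, where GS683.LALN lay between −0.05 and −0.02. Chromosome 19 held 31 of the 240 genes lower in JD1203.Lu, against 6.82% of all genes sorted. Its highest blocks were MT1E to CMTM4 at 0.43 and HSBP1 to CTU2 at 0.38 on chromosome 16, and SKAP1 to XYLT2 at 0.39 on chromosome 17. The joined runs on chromosomes 7 and 1 were chosen after the block medians were seen.

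**Figure D5:**
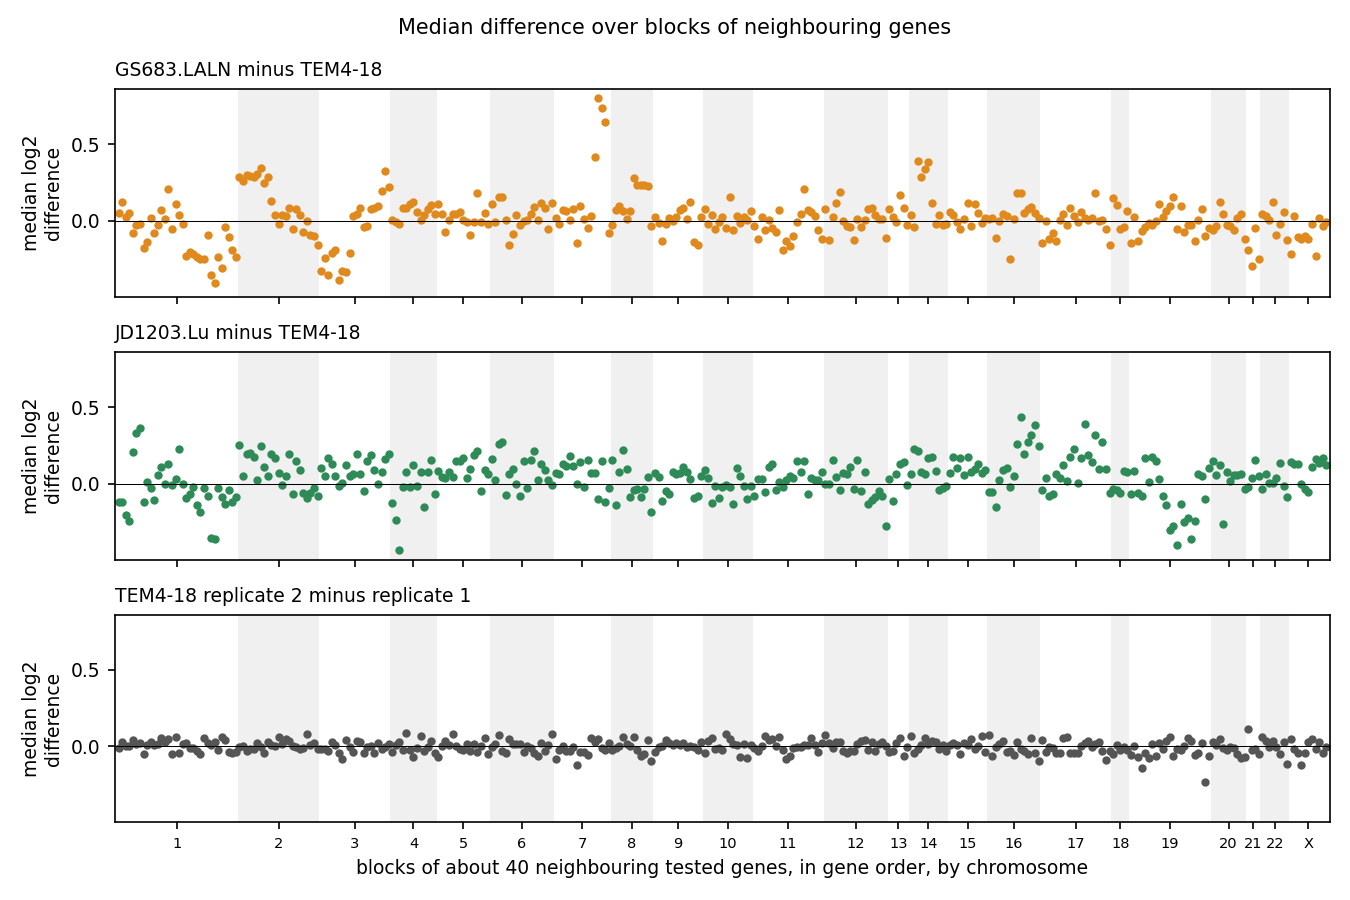
Median log2 difference over blocks of about 40 neighbouring tested genes, in gene order by chromosome, for GS683.LALN (top), JD1203.Lu (middle) and TEM4-18 replicate 2 minus replicate 1 (bottom). The raised group on chromosome 7 in the top panel reaches 0.80 and has no counterpart below it, where the duplicates stay between −0.24 and 0.11.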

How the data were processed

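RNA of 7 cultures was hybridised to 1-colour arrays. The deposited values are intensity values that the authors made with MAS5, per the submitters' processing notes (version not stated there). On every array the central 96% of the 54675 probe sets averaged 1499.8, so all had been scaled alike. An offset of 46.942 (20th percentile of the table) preceded log2, probe sets with a mean below the 40th percentile were left out, and the probe set of highest mean stood for its gene. Symbols came from the platform table and RefSeq. Limma 3.58.1 (R 4.3.3) fitted 3 groups (2, 2 and 3 arrays, 4 residual degrees of freedom) with an intensity trend, and the fit was tested on simulated data. Arrays carry no counts, so their number limits the precision. Members and gene lists were chosen with earlier results of these data known. Named were genes passing limma (or the 5 of lowest p), the 12 largest shared and 10 largest single-subline genes each way, 5 opposite genes each way, and up to 4 of the largest members of each list. Offsets, filters, scaling, probe sets, thresholds and left-out arrays were varied.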

Additional observations from a re-analysis of the deposited data

Results flagged for a closer look

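The genes below lay at least 2-fold above TEM4-18 in one subline and at least 2-fold below it in the other. The difference was not tested, since each subline is 1 array. The values are log2 differences of GS683.LALN minus JD1203.Lu. RAB31, a small GTPase of vesicle transport, stood at 4.62, with signals of 63.2 and 272 in TEM4-18, 1793 in GS683.LALN and 28.1 in JD1203.Lu. XK stood at 3.14, DAPP1 at 2.94, IL12A at 2.76 and CLDN11, a claudin, at 2.67. Other probe sets of DAPP1 that passed the filter did not lie 2-fold in opposite ways. Against TEM4-18 one read 0.36 in GS683.LALN and −0.55 in JD1203.Lu, and another 1.19 and 0.58. In the other direction SFTA1P, a noncoding transcript, stood at −5.45, with 194 and 103 in TEM4-18, 39.5 in GS683.LALN and 3734 in JD1203.Lu. STC1, a secreted glycoprotein, stood at −5.36, with 1894 and 2458 in TEM4-18, 162 in GS683.LALN and 8517 in JD1203.Lu. TRBC1, the constant segment of the T cell receptor beta chain, stood at −5.00, PTPN5 at −4.73 and ZSCAN18 at −4.15. A second PTPN5 probe set that passed the filter read −0.50 in GS683.LALN and 2.03 in JD1203.Lu against TEM4-18. The TEM4-18 duplicates were 1.53 apart for RAB31 and 1.39 apart for DAPP1.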

How the results depend on the processing

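No paired analysis was possible because the labels number only the TEM4-18 duplicates. With an offset at the median of all values the genes shared in both sublines numbered 58, those of GS683.LALN 84, those of JD1203.Lu 160 and opposite genes 5. With the filter at the 60th percentile these counts were 93, 109, 214 and 14. At 1.5-fold they were 682, 746, 1301 and 187, and at 3-fold 46, 68, 107 and 3; fewer or more genes pass by the construction of the threshold. With no offset the opposite genes numbered 51, and with unshared duplicates 73 or 66. Without 1 TEM4-18 replicate the shared genes numbered 264 to 310. The limma calls numbered 4 in the 4 arrays alone and 3 with no intensity trend, where the cause was not tested, and from 2 to 145 with 1 array left out. AADACP1 and TFAP2A were called under all 17 alternatives run, and the other 8 lost the call under 3 to 10 of them. CRTC1 in JD1203.Lu turned to 1.20 without probe sets of the _x_at kind. Over the 24 named shared genes and the alternatives, the limma difference kept its direction in 397 of 397 refits. These genes were picked for their size in the same arrays, so a reversal was unlikely and this adds no support. Medians of the mitosis, replication and interferon lists kept their sign under all 14 alternatives in both sublines, and those of the keratin and matrix lists in GS683.LALN. In JD1203.Lu the keratin median crossed 0 under 2 of them and the matrix median under 3.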

Other observations

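IGFBP6, AKR1C3, AKR1C1, NOTCH2 and CD24 also differed by size between the sublines. IGFBP6, a binding protein that favours IGF2, had signals of 7850.0 and 6507 in TEM4-18, 2791 in GS683.LALN and 8361 in JD1203.Lu. AKR1C3, which reduces steroid ketones, had 376 and 283 in TEM4-18, 188 in GS683.LALN and 2798 in JD1203.Lu, and AKR1C1 had 469 and 459.7 in TEM4-18, 531 and 1176 in the sublines. NOTCH2, a NOTCH receptor, had 10072 and 10241 in TEM4-18, 10023 in GS683.LALN and 3226 in JD1203.Lu. CD24, a surface sialoglycoprotein, had 1757 and 1589 in TEM4-18, 270.3 in GS683.LALN and 3645 in JD1203.Lu.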
